A study of Mus musculus with 8 samples.

Results

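The genes described here are the collagens outside the basement membrane, taken as every counted symbol written Col, a type number, the letter a and a chain number, without the type IV chain genes, Col7a1 and Col17a1. The pattern matched 44 of 23433 symbols and 8 of those were left out, which gave 36 genes. A collagen chain pairs with 2 others in a triple helix, and the chains differ in what the helix then builds. Fibrillar collagens (types I, II, III, V, XI, XXIV and XXVII) form the fibres of dermis, bone and cartilage, and FACIT collagens (fibril-associated collagens with interrupted triple helices, such as types IX, XII, XIV and XVI) sit on fibre surfaces. Type VI forms beaded filaments, type VIII forms networks, types XIII, XXIII and XXV span the cell membrane, and the multiplexins, types XV and XVIII, carry sugar chains and lie in basement membrane zones, although the rule keeps them. In skin most fibrillar collagen is made by dermal fibroblasts, whereas epidermal keratinocytes rest on the basement membrane above it.

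RNA of skin cells from mouse pups at postnatal day 0.5 was sequenced in 8 libraries, as 4 groups of 2 pups. Cells carrying the red reporter K14RFP and high for alpha6 integrin were sorted into a P-cadherin-high fraction, the hair germ (the epithelial bud of the new follicle), and a P-cadherin-low fraction, the interfollicular epidermis. Transgenic pups 4 and 6 carried pTRE2-200bcl, a doxycycline-responsive construct named for miR-200, together with K14rtTA, in which the keratin 14 promoter drives the doxycycline-dependent activator. Control pup 3 carried K14rtTA alone and control pup 5 carried pTRE2-200bcl alone, so the controls differed in genotype, and all pups were of mixed background from females fed doxycycline chow while pregnant. The series' title places the study in hair follicle development under the microRNA-200 family. Each pup gave 1 library of each fraction.

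Counts assigned to genes were between 7109871 and 14039583 per library. Levels are given in CPM (counts scaled to a common library size after TMM correction). About 3 counts is the upper 95% counting limit for a count of 0, and 3 counts corresponded to 0.199 to 0.522 CPM. The feature miR200primary was 526 to 797 CPM in the 4 transgenic libraries and 0.176 to 3.83 CPM in controls. The P-cadherin gene Cdh3 was 353 and 436 CPM in hair germ controls and 293 and 386 CPM in epidermal controls, so the transcript of the sorting marker overlapped between control fractions. All 6 keratinocyte markers were counted in every library. Libraries of control pup 3 and transgenic pup 4 from the epidermis stood apart, with 30.6% and 29.0% of gene counts on the ribosomal gene Rn45s against at most 13.0% elsewhere. Of 10 immune markers, all were called higher in transgenic epidermis by the test described below, where 4.99% of all genes tested were. They summed to 2760 and 2116 CPM there against 188 and 89.7 CPM in epidermal controls.

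MicroRNAs of the miR-200 family pair through bases 2 to 8, the seed, with matching letters in 3′ untranslated regions. The mature sequences (RefSeq, GRCm38.p6) fall into 2 seed groups and are shown because they define the letters searched in the collagen transcripts. The sources used here do not say which of them the construct holds. Capitals mark the seed.
miR-200a-3p: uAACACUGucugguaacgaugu
miR-141-3p: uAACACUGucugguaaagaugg
miR-200b-3p: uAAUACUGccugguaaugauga
miR-200c-3p: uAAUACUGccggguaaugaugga
miR-429-3p: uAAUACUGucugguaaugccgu

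The sites opposite these seeds, CAGTGTT and CAGTATT, were searched on the transcribed strand only, in the longest annotated 3′ untranslated region of each gene (GENCODE, GRCm38); the motifs do not overlap each other. Either site was in 7 of the 36 collagens (19.4%), against 25.6% of 20979 coding genes with an annotated region. Among the 22 collagens tested below, 4 held either site (18.2%), against 30.3% of 12649 tested genes with such a region. Among tested collagens, Col25a1 held 4 CAGTGTT sites in a region of 4185 bases, Col1a2 held 1, and Col5a1 and Col8a1 each held 1 CAGTATT. Neither run of letters was present in that window of Col12a1, Col18a1, Col14a1 or Col27a1. The sites of the 4 tested genes follow, with the match in capitals and 11 bases on each side.
Col25a1, match at chr3:130596027-130596033, plus strand: ggggtatgcagCAGTGTTttggagacagc
Col25a1, match at chr3:130597859-130597865, plus strand: gttcccctttgCAGTGTTttccatttgtg
Col25a1, match at chr3:130598187-130598193, plus strand: gcttccatatcCAGTGTTagagaagtctg
Col25a1, match at chr3:130599244-130599250, plus strand: gatattctttaCAGTGTTgtaaatgtttc
Col1a2, match at chr6:4540887-4540893, plus strand: caaaatgtttgCAGTGTTatttttgtggg
Col5a1, match at chr2:28037320-28037326, plus strand: tgggggcgggaCAGTATTtgaagatcact
Col8a1, match at chr16:57626569-57626575, minus strand: tcgctaatgaaCAGTATTcattctttgtg
These matches are descriptions of letters in annotated transcripts; binding at them was not measured.

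The collagen counts of these cells came mainly from 3 genes. Col12a1, Col16a1 (both FACIT) and Col18a1 (multiplexin) made up 74.9% to 88.4% of the summed collagen CPM in each library. Per kilobase of exonic length, mean levels over the 8 libraries were 79.5 CPM per kb for Col12a1, 73.0 for Col18a1 and 46.2 for Col16a1. The order of Col12a1 and Col18a1 was not the same in every group, since Col18a1 had the higher group mean per kilobase in control hair germ and in transgenic epidermis. The next genes were at 11.5 CPM per kb for both Col8a1 and Col5a2, and at 8.51 for Col5a1, 6.80 for Col27a1, 4.69 for Col6a1, 3.68 for Col14a1 and 3.55 for Col1a2. Below these, no collagen exceeded a mean of 2.06 CPM per kb, the level of Col6a3. By mean CPM, 11 collagens were at 10 or more, 16 had a count in every library and 14 had at least 3 counts in every library.

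**Figure D1:**
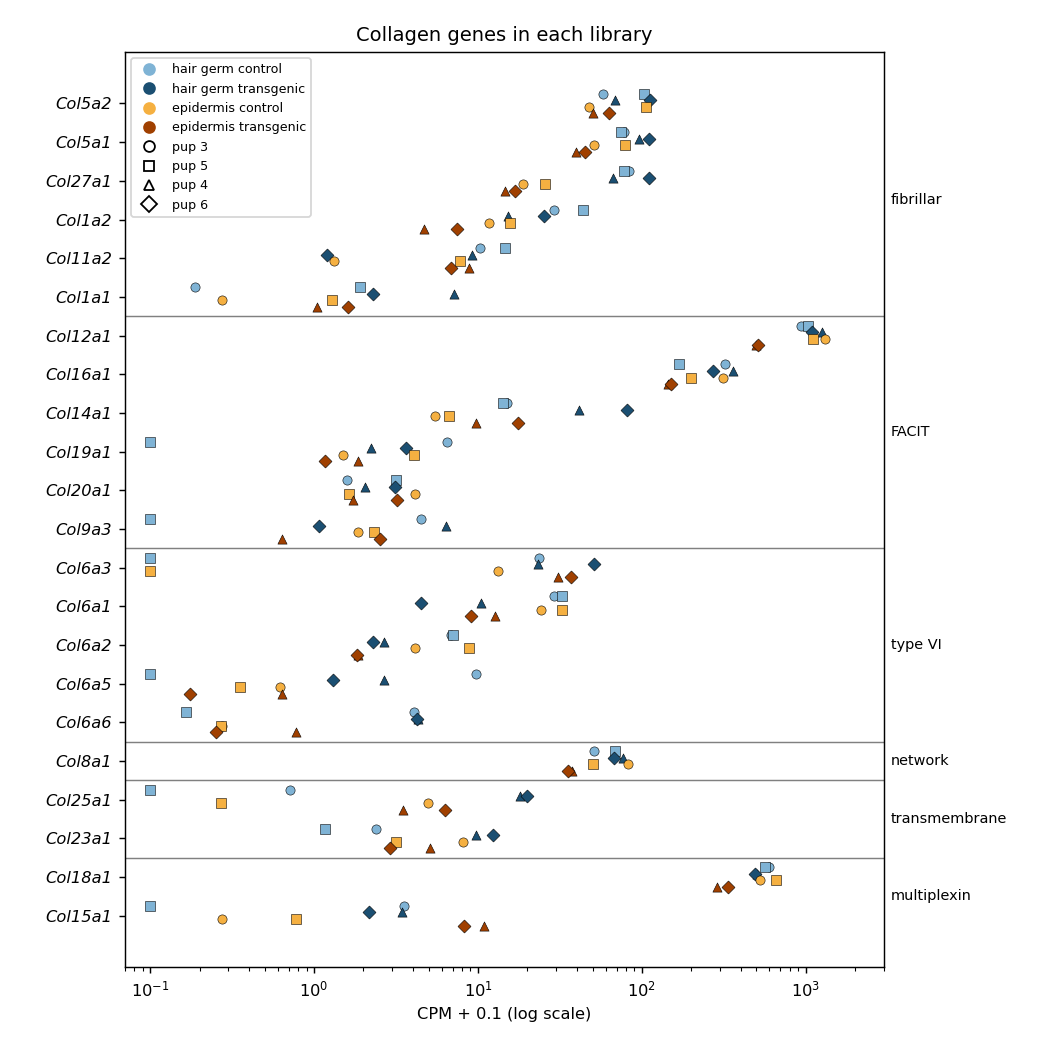
CPM + 0.1 on a log axis for the 22 collagen genes that passed the filter on low counts, grouped by class; each point is 1 library, its colour the group and its shape the pup, and "epidermis" is the interfollicular epidermis. Col12a1, Col18a1 and Col16a1 lie to the right of all others, and points at 0.1 are libraries with no count, among them both pup 5 libraries for Col6a3.

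The main fibrillar collagens of dermis were scarce and unequal. Col1a2 was 29.1 and 43.4 CPM in control hair germ, 15.2 and 25.2 in transgenic hair germ, 11.5 and 15.5 in epidermal controls and 4.59 and 7.33 in transgenic epidermis (pups in ascending number throughout). Col1a1, whose product supplies the other chain of type I collagen, had 1 and 27 counts in hair germ controls, 80 and 18 in transgenic hair germ, 1 and 14 in epidermal controls and 7 and 20 in transgenic epidermis. Col1a2 counts exceeded Col1a1 counts in every library, by 2.16-fold in hair germ of transgenic pup 4 and by up to 331-fold in hair germ of control pup 3, where the divisor is 1 count. Col3a1, the type III chain gene, had 6 and 0 counts in hair germ controls, 2 and 0 in transgenic hair germ, 0 and 1 in epidermal controls and 3 and 5 in transgenic epidermis. Col5a2, which lies 24.6 kb from Col3a1 on chromosome 1 on the other strand, was at 47.7 to 113 CPM across the same libraries. Col1a1, Col1a2 and Col3a1 together made up 0.739% to 3.11% of the summed collagen level per kilobase.

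Fibroblast markers gave a mixed reading beside these levels. Of 11 markers, 5 to 8 had a count in a library, and the list summed to 581 to 1437 CPM, with Postn at 408 to 1156 CPM carrying the largest part. Twist2 was at 0 in all 8 libraries, Lum was at 0 in all but the hair germ transgenics (0.792 and 1.82 CPM), and Dpt was at 0 in all but 1. Dcn, which encodes the fibril-binding proteoglycan decorin, was counted in every library, at 32.8 to 290 CPM. The part of other cell types in the collagen levels was not tested.

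A filter on low counts by group kept 22 of the 36 collagens for testing, and a gene low in most groups passed it only where another group was high, so counts and medians over those 22 describe them and support nothing. The 14 others were Col2a1, Col3a1, Col5a3, Col11a1 and Col24a1 (fibrillar), Col9a1, Col9a2 and Col22a1 (FACIT), Col6a4 and Col28a1, the network formers Col8a2 and Col10a1, Col13a1 (transmembrane) and Col26a1. Their total over the 8 libraries was 4 to 47 counts, and the highest single value was 3.88 CPM, for Col26a1 in hair germ of transgenic pup 6. The genes that mark cartilage, Col2a1, Col9a1 and Col11a1, were thus at or near 0. Genes were tested with edgeR's quasi-likelihood test over 14176 genes with Benjamini-Hochberg adjustment and a threshold of 0.05, in 5 comparisons, and differences are log2 fold changes with their standard error.

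In transgenic epidermis the most abundant collagens were lower. Col12a1 (chr9:79598991-79718831, minus strand, GRCm38), which encodes the type XII chain found on type I fibres, was 1302 and 1113 CPM in epidermal controls and 496 and 512 CPM in transgenics. The transgenic libraries were both below the controls, by a log2 fold change of -1.26 (SE 0.20, adjusted p = 0.00281). Col18a1 (chr10:77052178-77166548, minus strand), whose product releases endostatin, was 526 and 654 CPM in epidermal controls and 287 and 336 CPM in transgenics. These groups did not overlap, with a log2 fold change for Col18a1 of -0.92 (SE 0.20, adjusted p = 0.0166). These were the collagens called in this comparison, 2 of 22, both lower, where 6.34% of all genes tested were called and most of those were higher in transgenics. In bulk RNA of sorted cells, fewer cells of a type and less RNA per cell cannot be told apart.

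Several other epidermal collagens lay below their controls without passing the threshold. Col16a1 was 313 and 199 CPM in epidermal controls and 144 and 150 CPM in transgenics, a log2 difference of -0.79 (SE 0.31, adjusted p = 0.189). Col8a1, a type VIII network chain, was 82.5 and 50.1 CPM against 37.4 and 35.1 CPM (-0.86, SE 0.29, adjusted p = 0.126). Col5a1, a type V chain that helps start fibrils, was 50.7 and 79.1 CPM against 39.7 and 44.7 CPM (-0.63, SE 0.26, adjusted p = 0.231). Both transgenic libraries were below both controls for these genes, a separation whose share over all genes was not counted. Col5a2, the partner chain of type V, overlapped, at 47.7 and 106 CPM in epidermal controls and 50.4 and 62.5 CPM in transgenics. Of the 10 collagens with the highest mean CPM, 8 had a log2 fold change below 0, with Col14a1 and Col6a3 above it, and their median was -0.71; over all genes tested the median was -0.01. Over the 22 tested collagens the median was -0.46, with 14 below 0. Col15a1, the other multiplexin gene, was 0.174 and 0.679 CPM in epidermal controls and 10.8 and 8.09 CPM in transgenics (4.16, SE 1.22, adjusted p = 0.0637). That is 187 counts against 9, and the higher value of Col15a1 in transgenic epidermis did not pass the test.

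The epidermal differences stood beside a change in the keratinocyte markers of the same libraries. The 36 collagens summed to 2420 and 2313 CPM in epidermal controls and 1166 and 1264 CPM in transgenics, while the 6 keratinocyte markers summed to 31874 and 33571 CPM and to 15355 and 15478 CPM. Of those markers, which include Col17a1, 5 fell, where 1.35% of all genes tested were called lower. Per 100 CPM of keratinocyte markers, the collagens were at 7.59 and 6.89 CPM in epidermal controls and at 7.59 and 8.17 CPM in transgenics, so on that scale the transgenic libraries were not below the controls. The part of the immune and keratinocyte shifts, and of the other marker shifts given below, in the collagen calls was not tested. The call for Col12a1 was kept without any 1 of the 4 epidermal libraries and was lost with scaling by library size alone (-1.08, adjusted p = 0.0945). Without transgenic pup 4 in both fractions no collagen was called (Col12a1 -1.17, adjusted p = 0.212), and without the 2 libraries rich in Rn45s none was either (Col12a1 -1.10, adjusted p = 0.127). Col18a1 was not called without control pup 5 (adjusted p = 0.123), transgenic pup 4 (0.272) or transgenic pup 6 (0.102).

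**Figure D2:**
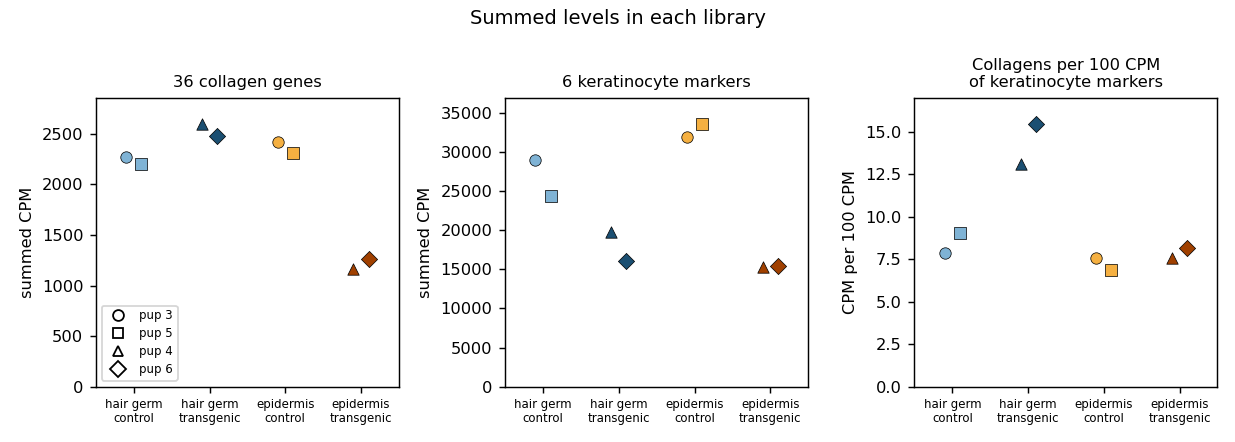
Left to right, summed CPM of the 36 collagens, summed CPM of the 6 keratinocyte markers, and the first per 100 CPM of the second; each point is 1 library and all axes start at 0. Transgenic epidermis is lowest in collagen CPM at 1166 and 1264. Per 100 CPM of keratinocyte markers it lies at 7.59 and 8.17 beside 7.59 and 6.89 in epidermal controls. In hair germ that ratio is 7.84 and 9.03 in controls and 13.1 and 15.4 in transgenics, where the keratinocyte markers are also lower.

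In the hair germ the abundant collagens did not pass the test, and 2 less abundant ones rose. Col14a1 (chr15:55307750-55520803, plus strand), which encodes the FACIT chain of type XIV, was 14.9 and 14.0 CPM in hair germ controls and 41.4 and 81.1 CPM in transgenics. Both transgenic libraries were above both controls, with a log2 fold change of 2.07 (SE 0.42, adjusted p = 0.0455). Col25a1 (chr3:130131501-130599877, plus strand), a transmembrane collagen, was 0.615 and 0 CPM in controls and 18.0 and 19.8 CPM in transgenics. The summed counts were 7 and 368, a ratio of 70.8 (95% counting interval 34.0 to 177), and the fitted log2 fold change was 6.08 (SE 1.18, adjusted p = 0.0314). Thus 2 of 22 collagens were called, both higher, where 0.952% of all genes tested were called. The log2 median was 0.27 over the 22 collagens, 15 of them above 0, and 0.04 over all genes.

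The other hair germ collagens ranged more widely. Col12a1 was 929 and 1029 CPM in controls and 1259 and 1093 CPM in transgenics (0.26, SE 0.20, adjusted p = 0.534). Col18a1 was 600 and 563 CPM against 507 and 491 CPM (-0.22, SE 0.20, adjusted p = 0.606). For both genes the libraries did not overlap, in opposite directions, and neither difference passed the threshold. The share of all genes that separate so was not counted. The 95% intervals were -0.17 to 0.70 for Col12a1 and -0.65 to 0.21 for Col18a1. Col16a1 (321 and 167 CPM against 357 and 270 CPM), Col8a1 (51.0 and 68.7 against 76.6 and 67.7) and Col5a2 (57.5 and 103 against 68.1 and 113) overlapped between genotypes. Col23a1, another transmembrane collagen, was 2.28 and 1.06 CPM in controls and 9.59 and 12.2 CPM in transgenics, a log2 difference of 2.74 (SE 0.75) that did not pass (adjusted p = 0.103). Summed over all 36 genes, the hair germ was at 2269 and 2201 CPM in controls and 2596 and 2475 CPM in transgenics. The 6 keratinocyte markers summed to 28951 and 24381 CPM in controls and 19819 and 16022 CPM in transgenics, with none called. Per 100 CPM of these markers, the collagens were at 7.84 and 9.03 CPM in controls and 13.1 and 15.4 CPM in transgenics. The lower marker sum is part of that higher ratio.

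Markers of other cells moved with the hair germ transgenics as well. Of 10 dermal papilla markers 6 were tested and 2 rose, where 0.762% of all genes tested were called higher in hair germ transgenics. The list summed to 415 and 353 CPM in transgenics and 65.0 and 64.0 CPM in controls. Most of the transgenic sum was Ltbp1, at 319 and 285 CPM. Sox18 was at 0 in all 4 hair germ libraries, and Hhip and Fgf10 had counts there only in transgenic pup 6. Of 8 melanocyte markers, 3 rose, and the list summed to 133 and 176 CPM against 31.7 and 30.4 CPM. Immune markers summed to 314 and 194 CPM against 120 and 57.7 CPM, with 3 of 10 called. Fibroblast markers went the other way, at 841 and 809 CPM in transgenics against 1364 and 1158 CPM in controls. Of the 5 tested, 4 had a log2 fold change below 0 and none was called. Transgenic epidermis shifted likewise. Its melanocyte list summed to 96.7 and 101 CPM against 24.0 and 18.9 CPM in epidermal controls. Of that list 4 of 8 were called higher, where 4.99% of all genes tested were. Its fibroblast list summed to 581 and 694 CPM against 1393 and 1437 CPM, with 1 of 5 called lower, where 1.35% of all genes were. Its dermal papilla list summed to 146 and 140 CPM against 108 and 46.3 CPM, with 0 called. The part of these cell types in the rise of Col14a1 and Col25a1 was not tested. The call for Col14a1 was lost without any 1 of the 4 hair germ libraries (adjusted p = 0.0803 and 0.0724 without control pups 3 and 5, 0.0899 and 0.224 without transgenic pups 4 and 6). That for Col25a1 was lost without control pup 5 (0.0718), transgenic pup 4 (0.124) or transgenic pup 6 (0.146).

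**Figure D3:**
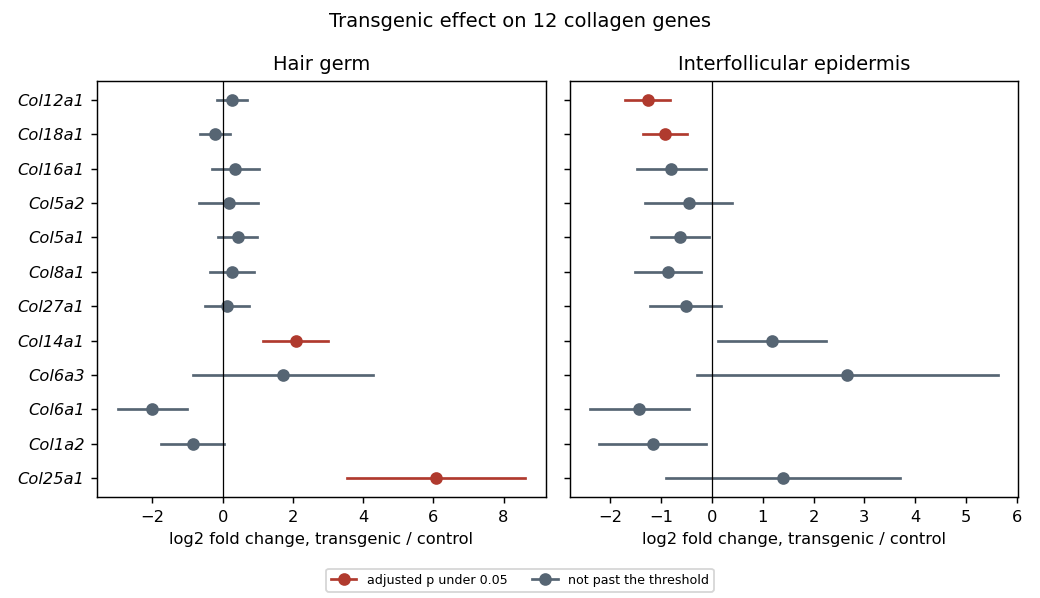
Log2 fold change of transgenic against control (points) with 95% intervals (lines) for the 10 collagens of highest mean CPM, Col1a2 and Col25a1, in hair germ and in interfollicular epidermis; red marks an adjusted p under 0.05. Col12a1 and Col18a1 are red in the epidermis at -1.26 and -0.92, and Col14a1 and Col25a1 are red in the hair germ at 2.07 and 6.08; the horizontal scales of the panels differ.

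Col14a1 also lay above its controls in the epidermis, at 5.40 and 6.54 CPM in controls and 9.58 and 17.4 CPM in transgenics (1.18, SE 0.49, adjusted p = 0.223). Col25a1 in the epidermis was 4.88 and 0.170 CPM in controls and 3.37 and 6.20 CPM in transgenics, with overlap. The test of the difference between the fractions' transgenic effects called none of the 22 collagens, where 0.134% of all genes tested were called. At an unadjusted p under 0.05 there were 7 of the 22 collagens and 1149 of the 14176 genes. DESeq2 called 1 and limma-voom 0. The smallest p among the collagens was that of Col12a1, whose transgenic effect was 1.52 higher on the log2 scale in hair germ than in epidermis (SE 0.28, adjusted p = 0.0707). With the pup as a replicate block, since both fractions came from the same animals, that difference was 1.52 (SE 0.22) with an adjusted p of 0.0188, and Col12a1 was the 1 collagen called. Of the 22 collagens 17 had an effect that was higher in the hair germ, and the median difference was 0.67 against 0.06 over all genes.

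Between the fractions of control pups, no collagen was called. Here 1 of all genes tested was called (0.00705%), and an unadjusted p under 0.05 was reached by 3 of the 22 collagens and 1200 of the 14176 genes. The smallest belonged to Col27a1 (chr4:63214004-63334991, plus strand), a fibrillar collagen known from cartilage, which was 83.7 and 77.4 CPM in hair germ and 18.8 and 25.5 CPM in epidermis. Both hair germ libraries were above the epidermal ones, a separation whose share over all genes was not counted. The log2 fold change of 1.85 (SE 0.31, adjusted p = 0.119) did not pass the threshold. DESeq2 called Col27a1 at an adjusted p of 0.000205 and limma-voom called no collagen. Col1a2 (29.1 and 43.4 against 11.5 and 15.5 CPM, 1.40, SE 0.43, adjusted p = 0.485) and Col14a1 (14.9 and 14.0 against 5.40 and 6.54 CPM, 1.25, SE 0.48, adjusted p = 0.563) were the others. Col12a1, Col18a1 and Col16a1 had log2 differences of -0.30, -0.02 and -0.06.

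In transgenic pups 4 collagens were higher in hair germ than in epidermis and none lower, where 4.62% of all genes tested were called and most of those were lower in hair germ. Col27a1 was 67.0 and 110 CPM in hair germ and 14.6 and 16.7 CPM in epidermis, with a log2 fold change of 2.49 (SE 0.32, adjusted p = 0.00153). Hence the fractions did not overlap for Col27a1 in either genotype, and its transgenic effect in each fraction did not pass the test (adjusted p = 0.860 in hair germ and 0.499 in epidermis). Col12a1 was higher in hair germ by 1.22 (SE 0.20, adjusted p = 0.00532), with 1259 and 1093 CPM against 496 and 512 CPM. Col14a1 was higher by 2.14 (SE 0.42, adjusted p = 0.0136), with 41.4 and 81.1 CPM against 9.58 and 17.4 CPM. Col5a1 (chr2:27886425-28039514, plus strand) was 95.5 and 110 CPM in hair germ and 39.7 and 44.7 CPM in epidermis, higher by 1.28 (SE 0.26, adjusted p = 0.0163). That the fractions did not overlap for these 4 called genes adds nothing to their calls. The same transgenic epidermal libraries served in the comparison with controls above. Exons of Col5a1 overlap 2 genes on the other strand by 99 and 113 bases, and the sources used here give no strand setting for the counting, so reads of the overlap cannot be told apart.

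With the pup as a replicate block, 7 collagens were called in this comparison. The block added Col16a1 (1.08, SE 0.18, adjusted p = 0.00686), Col18a1 (0.68, SE 0.16, adjusted p = 0.0350) and Col1a2 (1.76, SE 0.41, adjusted p = 0.0323). Without the block, the adjusted p was 0.0715 for Col16a1, 0.0789 for Col18a1 and 0.0630 for Col1a2. The log2 median over the 22 collagens was 1.14, with 18 above 0, against 0.02 over all genes. The call for Col27a1 was kept without any 1 of the 4 transgenic libraries. Calls for Col12a1 (adjusted p from 0.0578 to 0.0800) and Col5a1 (from 0.0795 to 0.224) were lost without any 1 of these 4 libraries, and that for Col14a1 without hair germ of pup 6 (0.202) or epidermis of pup 4 (0.165).

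**Figure D4:**
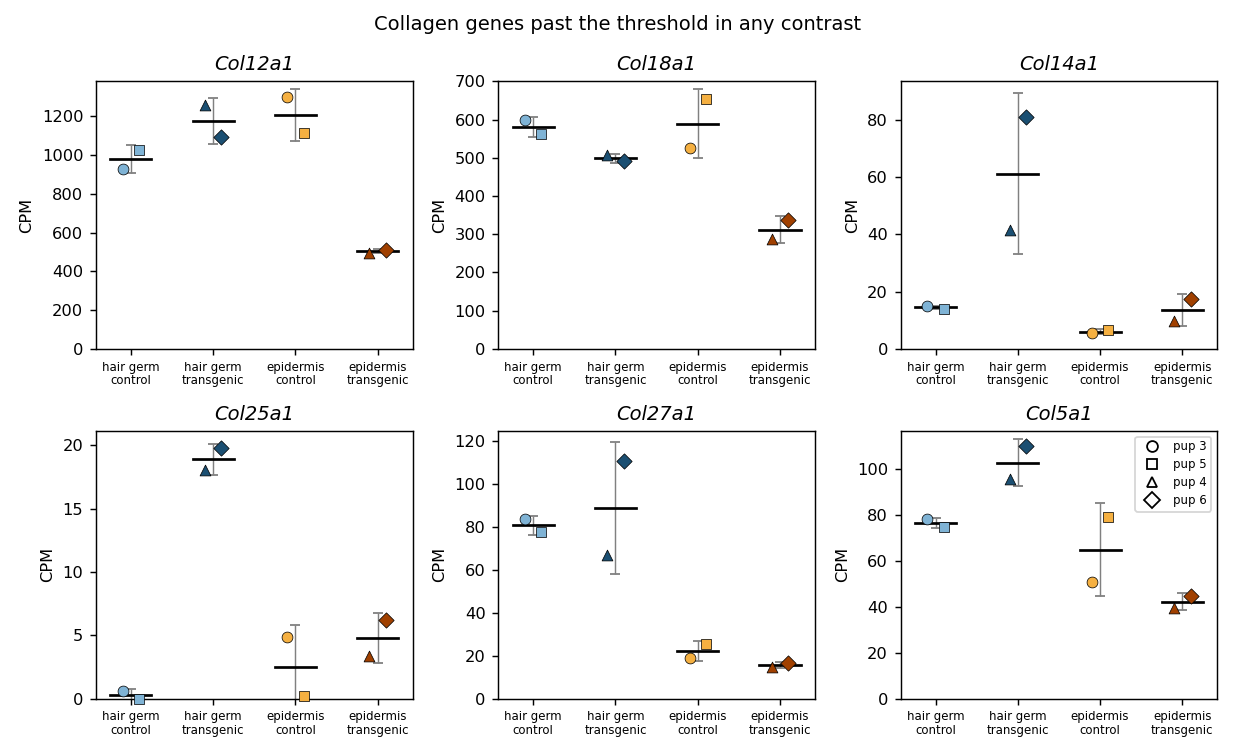
CPM of the 6 collagens past the threshold in any comparison; points are libraries (shape gives the pup), the black bar is the mean of 2 pups and the grey bar its SD, and "epidermis" is the interfollicular epidermis. Col12a1 and Col18a1 are lowest in transgenic epidermis, Col14a1 and Col25a1 highest in transgenic hair germ, and Col27a1 is higher in hair germ than in epidermis in both genotypes.

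The type VI chain genes did not share 1 pattern. Col6a1 was 28.9 and 32.2 CPM in hair germ controls, 10.4 and 4.36 CPM in transgenic hair germ, 24.2 and 32.3 CPM in epidermal controls and 12.5 and 8.99 CPM in transgenic epidermis. All 4 transgenic libraries were below all 4 controls, and neither difference passed the threshold (hair germ -2.01, SE 0.45, adjusted p = 0.0592, and epidermis -1.43, SE 0.44, adjusted p = 0.0902). Among the alternative runs, Col6a1 was called in hair germ with library size alone, no filter on low counts, DESeq2 and Rn45s removed. In epidermis it was called with only the libraries compared. Col6a2, its neighbour 85.2 kb away on chromosome 10, was 6.76 and 6.98 CPM, 2.55 and 2.18 CPM, 4.01 and 8.74 CPM, and 1.75 and 1.74 CPM in the same order. Its transgenic libraries were also all below its controls (adjusted p = 0.297 in hair germ and 0.195 in epidermis). The share of all genes that separate as Col6a1 and Col6a2 did was not counted, so the separation supports nothing. Col6a3, on chromosome 1, was 23.4 and 0 CPM in hair germ controls, 23.1 and 51.3 CPM in transgenic hair germ, 13.2 and 0 CPM in epidermal controls and 30.6 and 37.0 CPM in transgenic epidermis. Both zeros were libraries of control pup 5, and Col6a3 did not pass the test in hair germ (adjusted p = 0.491) or epidermis (0.361). The classical type VI filament is built of all 3 chains. The later duplicates Col6a5 and Col6a6 were at most 9.58 and 4.22 CPM in any library.

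**Figure D5:**
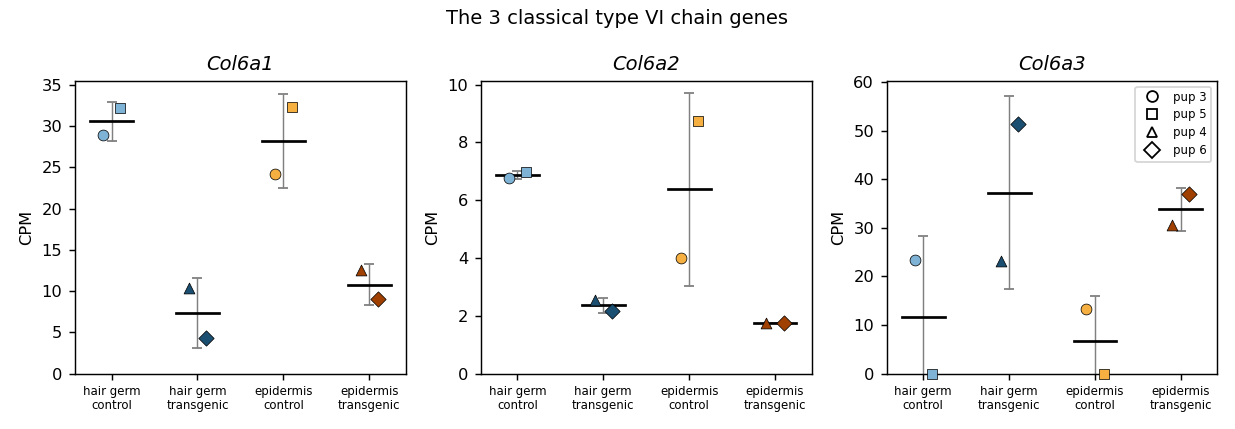
CPM of the type VI chain genes Col6a1, Col6a2 and Col6a3 in the 4 groups; points are libraries (shape gives the pup), the black bar is the mean of 2 pups and the grey bar its SD. Transgenic libraries lie below controls for Col6a1 and Col6a2, and Col6a3 is at 0 in both libraries of pup 5.

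The remaining tested collagens were low. Col11a2 (fibrillar) was between 1.09 and 14.5 CPM, and the FACIT genes Col19a1, Col20a1 and Col9a3 reached at most 6.41, 4.01 and 6.25 CPM. No comparison called any of these, and Col19a1 was 6.41 and 0 CPM in the 2 control hair germ libraries. Exons of Col9a3 overlap Tcfl5 on the other strand by 234 bases.

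Genes that process or bind collagen were read from lists of known function. Of 32 genes of collagen maturation 24 were tested, and none rose in either transgenic comparison. Adamts14, which cleaves the amino-terminal propeptide of fibrillar procollagen, fell in hair germ from 345 and 171 CPM to 75.7 and 88.5 CPM (log2 -1.65, SE 0.30, adjusted p = 0.0314) and in epidermis from 252 and 195 CPM to 82.0 and 68.2 CPM (-1.57, SE 0.30, adjusted p = 0.00923). It was the 1 gene of the list called in hair germ. In epidermis Serpinh1, the collagen chaperone, also fell (-0.96, SE 0.22, adjusted p = 0.0241), as did the prolyl hydroxylase gene Leprel1 (-1.06, SE 0.29, adjusted p = 0.0484). These were 3 of 24 in all, where 1.35% of all genes tested were called lower. Of 9 collagen receptor genes tested, Itga2, a subunit of the keratinocyte collagen receptor, fell in transgenic epidermis (-1.21, adjusted p = 0.0367), and Lair1, an inhibitory collagen receptor of immune cells, rose (5.38, adjusted p = 0.00387). None of the 9 was called in hair germ. Of 12 tested genes of fibril-associated matrix, Thbs2 rose in hair germ (2.17, SE 0.42, adjusted p = 0.0404) and Postn fell in epidermis (-1.26, SE 0.24, adjusted p = 0.00820).

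The basement membrane collagens that the rule left out give a comparison. Of 8 genes 7 were tested. In transgenic epidermis Col7a1 (-1.10, SE 0.24, adjusted p = 0.0187) and Col17a1 (-0.95, SE 0.23, adjusted p = 0.0314) fell. That is 2 of 7, beside 2 of 22 for the collagens described here and 1.35% of all genes tested called lower. None of the 7 was called in hair germ. Between fractions in transgenic pups, Col7a1 (1.06) and Col4a2 (1.16) were higher in hair germ (adjusted p = 0.0293 and 0.0437). The difference between the 2 sets of collagens was not tested.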

How the data were processed

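Raw counts per gene symbol were deposited by the authors for 8 libraries. Per the submitters' processing notes, TopHat, HTSeq and DESeq2 were used with build mm10 (GRCm38); versions and strand setting were not stated in the sources used here. Trizol RNA was made into libraries with a low-input SMARTer stranded kit for total RNA, per the labels' protocols. A deposited matrix of normalised signal by the authors equalled the counts divided by 1 constant per library within 0.1% for all 23406 shared names, and served only as that check. Per the file contents, 5 HTSeq summary lines per library were left out; reads assigned to genes were 23.4% to 42.4% of the records.

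After TMM scaling, filterByExpr (with the 4 groups) kept 14176 genes, and 1 mean per group was fitted to the 8 libraries together with edgeR 4.0.16 in R 4.3.3 (glmQLFit with legacy set to FALSE, glmQLFTest, two-sided). P was adjusted by Benjamini-Hochberg within each of 5 contrasts, at 0.05. The common biological coefficient of variation was 0.475. The script was tested on simulated data before use. Count ratios and their exact 95% intervals, and limits for a count of 0, cover counting error only. Pups are separate animals, and both fractions of a pup share its number, per the labels. The correlation across all 14176 tested genes of a pup's deviations between fractions was 0.117 in controls and 0.0868 in transgenics. Among the 7675 more abundant ones (average log2 CPM 4 or higher) that correlation was higher, at 0.363 in controls and 0.240 in transgenics. Positions, exonic lengths and 3′ regions come from GENCODE for GRCm38 and mature microRNAs from RefSeq. The members and the lists were chosen with earlier results of these data known. Values in every library were given for members called in any contrast, Col1a1, Col1a2, Col3a1 and the 10 of highest mean CPM, and at most 3 genes were named from a context list; Col6a2, Col15a1, Col23a1 and the cell type markers named were chosen after their values were seen. Alternatives were RLE scaling, library size alone, no filter, Rn45s removed, edgeR's legacy method, DESeq2 1.42.0, limma-voom (limma 3.58.1), only the libraries compared, pup as a block, and leaving out single libraries, pup 4 or the libraries rich in Rn45s.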

Additional observations from a re-analysis of the deposited data

Results flagged for a closer look

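The 22 tested collagens were searched for groups that separated without overlap in opposite directions. The share of all genes that do so was not counted, so the separation itself supports nothing. For Col12a1 and Col5a1, both transgenic libraries lay above both controls in hair germ and below both controls in interfollicular epidermis. For Col23a1, both hair germ libraries lay below both epidermal libraries in control pups (2.28 and 1.06 against 8.01 and 3.06 CPM) and above them in transgenic pups (9.59 and 12.2 against 4.99 and 2.80 CPM). In the test of this difference itself, the transgenic effect in hair germ minus that in epidermis was 1.52 on the log2 scale for Col12a1 (edgeR adjusted p = 0.0707), 3.18 for Col23a1 (SE 1.09, adjusted p = 0.461) and 1.05 for Col5a1 (SE 0.37, adjusted p = 0.468). None of these 3 adjusted p-values passed the threshold; that of Col12a1 did with the pup as a replicate block (0.0188), with DESeq2, with no filter on low counts (0.0423) and without hair germ control pup 5.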

How the results depend on the processing

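No called collagen changed sign, in the comparison that called it, under any alternative run. Counts of called collagens did change. Col6a1 joined the hair germ calls with library size alone, no filter on low counts or Rn45s removed, giving 3. It did so with DESeq2 too, beside Col23a1. In hair germ, transgenic against control, 2 became 0 with edgeR's legacy method, limma-voom, only the libraries compared, pup 4 left out or the libraries rich in Rn45s left out, and 4 with DESeq2; leaving out single libraries gave 0 to 1. In epidermis, 2 became 4 with only the libraries compared and 0 without pup 4 or the libraries rich in Rn45s; single libraries gave 1 to 2. Scaling by library size alone also gave 2 there, but both were higher in transgenics (Col15a1 and Col6a3), whereas both calls with TMM were lower; that scaling moved the median of all genes to 0.15 from -0.01 in this comparison, and to 0.26 and 0.20 between fractions of control and transgenic pups. Between fractions of control pups, 0 became 1 with library size alone and with DESeq2, and single libraries gave 0 to 1. Between fractions of transgenic pups, 4 became 7 with DESeq2, 8 with only the libraries compared, 7 with the pup as a replicate block, 0 without pup 4 and 1 without the libraries rich in Rn45s; single libraries gave 1 to 2. For the difference of effects, 0 became 1 with no filter, DESeq2 or the replicate block, and single libraries gave 0 to 1, with the 1 call appearing without hair germ control pup 5. The block changed no call between fractions of control pups, and it could not be fitted for transgenic against control, where each pup is in 1 arm. The causes of these changes were not tested, except that leaving libraries out also leaves fewer samples, and a lone library in a group is then assumed to vary like the other groups. At these depths, a count of 0 in a library did not show that a collagen was absent. Levels up to about 3 counts lie within its 95% counting limit, and counts below 3 are too few to give a level.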

Other observations

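Col6a3 had 0 counts in both libraries of control pup 5, hair germ and epidermis, and 76 to 489 counts in the other 6 libraries. It was the 1 symbol at 0 in both libraries of any pup with at least 50 counts in each library of the others. With at least 20 counts in the others there were 4 such symbols for pup 5 (Cacna1e, Clec4n, Cmpk2 and Col6a3) and 0 for pups 3, 4 and 6. Cops8, which lies on the same chromosome before Col6a3, had 207 to 672 counts in all 8 libraries, 672 and 366 of them in pup 5. These counts were made after the values of Col6a3 were seen.

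The counts of the type I chain genes were unequal in every library. Col1a2 counts were 331 and 66 times those of Col1a1 in the libraries of control pup 3, where Col1a1 had 1 count in each, and 24.2 and 13.1 times in those of control pup 5. In transgenic pups the ratio was 2.16 and 4.86 for pup 4 and 11.6 and 4.85 for pup 6, hair germ first. Per kilobase of exonic length Col1a1 averaged 0.315 CPM and Col1a2 averaged 3.55 CPM over the 8 libraries.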
